A study of Mus musculus with 18 samples.

Results

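Interferon gamma (IFN-γ, gene Ifng) and the chemokine axis it turns on were followed through the lacrimal glands (LGs) of 18 male mice. The axis was taken as 9 genes, matched by symbol among the 54232 genes of the count table: the cytokine Ifng, its receptor chains Ifngr1 and Ifngr2, the transcription factor Irf1, the feedback inhibitor Socs1, the chemokines Cxcl9, Cxcl10 and Cxcl11, and their receptor Cxcr3. All 9 were found. The disease group was NOD.B10Sn-H2b/J (NOD.H-2b), an inbred non-diabetic relative of the NOD mouse that serves as a model of Sjögren's syndrome, and the control was the inbred strain BALB/cJ (BALB/c). No treatment is stated for either strain, and mice were taken when 2, 4 or 6 months old (2M, 4M and 6M), with 3 mice in each of the 6 groups and 1 gland from each mouse. The strains differ in their whole genetic background, so strain and disease cannot be told apart. The values are raw read counts per gene from rRNA-depleted bulk RNA-seq, and the level of a gene is given as CPM, its counts scaled to library size with TMM factors of the 18 libraries.

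IFN-γ is made mainly by activated T cells and NK cells. It binds a receptor of the IFNGR1 and IFNGR2 chains, which signals through the kinases JAK1 and JAK2 and switches on Irf1 and Socs1 among its first targets. CXCL9, CXCL10 and CXCL11 are secreted by cells that have sensed IFN-γ, macrophages and dendritic cells among them, and attract cells that carry CXCR3, chiefly Th1 and cytotoxic T cells and NK cells, which make IFN-γ themselves.

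The 9 genes lie at these places in GRCm38, by GENCODE M21. Cxcl9 (chr5:92321347-92328079), Cxcl10 (chr5:92346638-92348889) and Cxcl11 (chr5:92359544-92365485) are neighbours on the reverse strand of chromosome 5 and together span 44139 bases. Ifng (chr10:118441046-118445892) and Ifngr1 (chr10:19591949-19610229) are on the forward strand of chromosome 10, Ifngr2 (chr16:91547072-91565623, forward) and Socs1 (chr16:10782240-10785536, reverse) on chromosome 16, Irf1 (chr11:53770014-53778374, forward) on chromosome 11 and Cxcr3 (chrX:101731535-101734269, reverse) on the X chromosome. The strand setting of the read counting is not stated. Exons of 4 members overlap those of another gene. Ifng shares 336 exon bases with Gm49751, Irf1 135 with Gm17334 and Cxcl10 133 with Art3, and Gm2673 lies over 1582 exon bases of Cxcl11, which GENCODE lists as a polymorphic pseudogene. These partners had few counts, at most 12 in any mouse for Gm49751, 9 for Gm17334 and 1 for Gm2673, and between 14 and 85 for Art3. How reads in shared bases were assigned is not stated, so these counts do not show whether members lost reads there.

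Promoter sequence was taken from RefSeq (GRCm38.p6), which had a window for 8 of the 9 genes. The 250 bases before the start were searched on both strands for the GAS motif TTCNNNGAA, the gamma-activated site, and for the core of the ISRE, GAAANNGAA, the form of site that IRF proteins bind. No match to the one motif overlapped a match to the other. The 4 windows shown belong to members that are known to respond to IFN-γ and that held a match, which is in capitals.

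Irf1 (chr11:53769764-53770013, forward strand): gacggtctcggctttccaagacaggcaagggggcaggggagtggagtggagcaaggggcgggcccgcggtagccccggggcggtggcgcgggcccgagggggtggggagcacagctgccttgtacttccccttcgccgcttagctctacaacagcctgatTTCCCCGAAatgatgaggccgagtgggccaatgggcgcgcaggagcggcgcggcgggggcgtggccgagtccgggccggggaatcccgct

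Socs1 (chr16:10785537-10785786, reverse strand): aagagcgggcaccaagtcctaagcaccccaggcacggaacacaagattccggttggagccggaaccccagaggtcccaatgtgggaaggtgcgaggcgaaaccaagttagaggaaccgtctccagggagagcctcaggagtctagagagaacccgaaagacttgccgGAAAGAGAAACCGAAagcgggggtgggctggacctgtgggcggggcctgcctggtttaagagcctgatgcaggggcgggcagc

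Cxcl9 (chr5:92328080-92328329, reverse strand): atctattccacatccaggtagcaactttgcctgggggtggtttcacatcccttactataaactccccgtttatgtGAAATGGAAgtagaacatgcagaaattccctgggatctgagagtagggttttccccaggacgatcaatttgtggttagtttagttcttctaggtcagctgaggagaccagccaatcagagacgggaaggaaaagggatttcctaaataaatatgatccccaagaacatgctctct

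Cxcl10 (chr5:92348890-92349139, reverse strand): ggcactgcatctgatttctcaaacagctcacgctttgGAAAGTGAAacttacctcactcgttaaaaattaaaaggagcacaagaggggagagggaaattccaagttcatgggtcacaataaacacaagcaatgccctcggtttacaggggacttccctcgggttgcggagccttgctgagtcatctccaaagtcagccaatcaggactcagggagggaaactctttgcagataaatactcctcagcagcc

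In the window shown, Irf1 held a GAS match 90 to 82 bases before the start. A second Irf1 window (chr11:53770223-53770472) held neither motif. Socs1 held a pair of overlapping ISRE core matches, 83 to 75 and 77 to 69 bases before the start, Cxcl9 held one 175 to 167 bases before and Cxcl10 one 213 to 205 bases before. The Ifng window held a GAS match 249 to 241 bases before the start, and neither motif was found in the windows of Ifngr1, Ifngr2 and Cxcr3. Of all 32841 windows of this length, 7.02% held the GAS motif and 7.13% the ISRE core. A match is a run of letters and was not tested as a binding site.

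The library totals ran from 49480781 to 103936830 counts. The 11 lacrimal and epithelial markers were all present in every mouse and summed to between 1856 and 4054 CPM, while skeletal muscle and salivary gland markers each summed to at most 1.73 CPM. Markers of T cells summed to between 0.423 and 5.98 CPM in BALB/c and between 8.15 and 124 CPM in NOD.H-2b LGs. In whole tissue, a difference in the number of cells of a type and a difference in RNA per cell cannot be told apart. The BALB/c 4M replicate 3 stood highest of the 9 control glands in T cell markers (5.98 CPM) and in macrophage markers (179 CPM). The NOD.H-2b 2M replicate 1 stood lowest of its strain in both, so some results are also given without these mice.

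The first question was which genes of the axis differed between the strains at each age. Strains were compared on the 6 mice of an age with edgeR's quasi-likelihood test, and DEGs passed an FDR of 0.05 (Benjamini-Hochberg, over all genes tested) with a change of 2-fold or more. At 2M, 6 of the 7 members tested were DEGs upregulated in NOD.H-2b LGs, against 12.0% of the 17200 genes tested. At 4M there were 5 of 7, against 15.6% of 17722 genes, and at 6M 7 of 8, against 18.8% of 17750 genes. No member was downregulated at any age. Across the members tested the median log2 fold change was 2.66, 2.73 and 4.55 at 2M, 4M and 6M, while the median of all genes tested was 0.01 or less in size at each age. Ifng at 2M and 4M and Cxcl11 at all ages had too few counts to pass the filter. Ifng, Cxcl10, Cxcl11 and Cxcr3 were never tested in the fits of BALB/c mice alone and Cxcl9 only in 1 of 3, so these genes entered the strain fits through their NOD.H-2b counts, and the counts of DEGs are given as a description.

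The sizes ranged widely. Of the members tested at all 3 ages, the chemokines Cxcl9 and Cxcl10 and Cxcr3 differed by the largest folds, Socs1 stood between, and Irf1 and the receptor chains differed least.

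**Figure D1:**
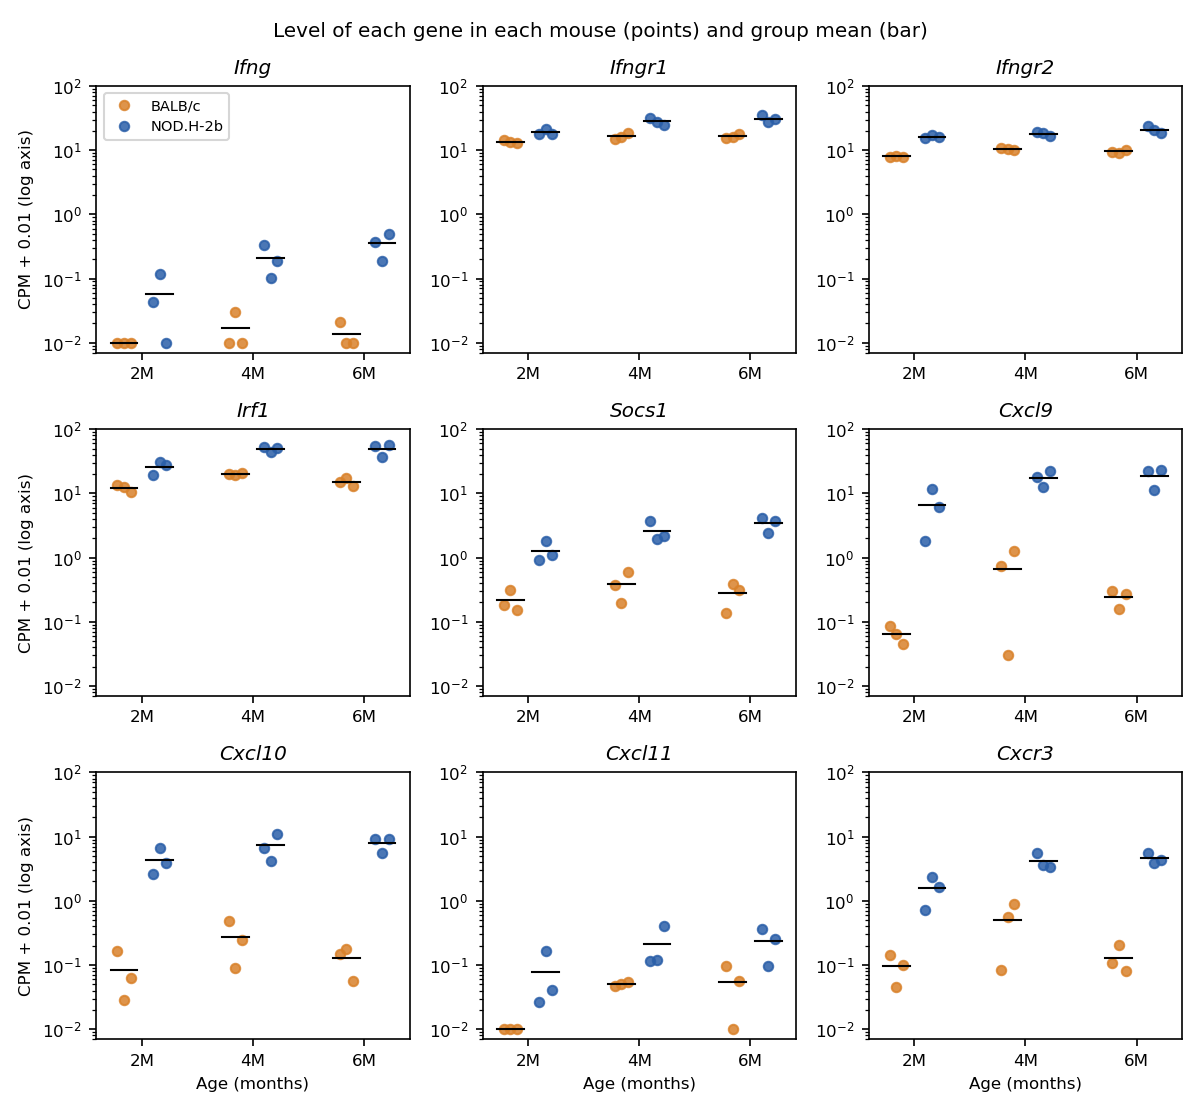
Level of each of the 9 genes in each of the 18 mice, as CPM plus 0.01 on a log axis, by age, with BALB/c in orange, NOD.H-2b in blue and the group mean as a bar. NOD.H-2b mice lie above BALB/c mice of the same age in every panel, except for Ifng at 2M, where 1 of the 3 NOD.H-2b mice had no count.

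Ifng, the cytokine at the head of the axis, was close to the limit of detection. At 2M it had 0, 0 and 0 counts in the BALB/c mice and 2, 7 and 0 in the NOD.H-2b mice. At 4M it had 0, 1 and 0 counts in BALB/c and 21, 6 and 9 in NOD.H-2b, and at 6M 1, 0 and 0 against 28, 10 and 28. The control glands thus held 2 counts of Ifng among 9 libraries, the NOD.H-2b glands 111, and the strains overlapped at 2M only.

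With BALB/c set at a floor of 3 counts over the group, the 9 NOD.H-2b counts of Ifng at 2M gave a ratio of 2.60. This ratio has no interval, and 7 of the 9 counts came from 1 mouse. At 4M the ratio of the pooled levels was 34.0, with a 95% exact interval from 5.72 to 1378, and at 6M it was 63.2, with an interval from 11.0 to 2536. These intervals cover counting error only. Ifng could be tested at 6M, where it was a DEG (log2 fold change 5.58 ± 0.84 SE, FDR 0.000343). With a single BALB/c count this fitted value depends on the prior count of the fit, and without BALB/c 6M replicate 1, which held that count, it was 7.29 with an FDR of 0.00346. With no filter on low counts Ifng had an FDR of 0.0589 at 2M and of 0.000804 at 4M. The neighbouring noncoding gene Ifngas1 followed the same split, with at most 1 count in any BALB/c mouse and between 3 and 45 in the NOD.H-2b mice.

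The receptor chains were the steadiest genes of the axis. Ifngr1, which binds IFN-γ, measured 14.2, 13.2 and 13.0 CPM in the BALB/c mice at 2M and 17.6, 21.2 and 17.7 CPM in the NOD.H-2b mice. By 6M it measured 15.4, 16.2 and 18.0 CPM in BALB/c and 34.8, 27.1 and 30.5 CPM in NOD.H-2b. The strains did not overlap at any age. Its log2 difference was 0.53 ± 0.09 at 2M (FDR 0.000548), 0.78 ± 0.11 at 4M (FDR 0.000435) and 0.94 ± 0.10 at 6M (FDR 3.93e-05), each below 2-fold, so Ifngr1 passed the FDR but was no DEG. Without NOD.H-2b 6M replicate 2 its 6M value was 1.03, and it was then a DEG.

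Ifngr2, the signalling chain of the receptor, measured 7.93, 8.15 and 7.93 CPM in BALB/c at 2M and 15.6, 17.5 and 15.8 CPM in NOD.H-2b LGs. At 4M the groups lay at 9.92 to 11.0 CPM and 16.4 to 19.3 CPM, and at 6M at 9.16 to 10.1 CPM and 18.7 to 23.5 CPM. The highest control stayed below the lowest NOD.H-2b mouse at each age. The log2 fold change was 1.07 ± 0.08 at 2M (FDR 1.3e-06), 0.79 ± 0.10 at 4M (FDR 0.000173) and 1.16 ± 0.11 at 6M (FDR 1.15e-05), so that Ifngr2 was a DEG at 2M and 6M and under 2-fold at 4M.

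Irf1, an early target of IFN-γ whose product binds ISRE sites, had the highest mean level per length of the axis in NOD.H-2b LGs at 4M and 6M, with a range that overlapped that of Ifngr1 at both ages. At 2M it measured 13.4, 12.4 and 10.7 CPM in BALB/c and 19.5, 31.2 and 27.4 CPM in NOD.H-2b LGs. At 4M the values were 20.3, 19.2 and 20.9 CPM against 53.4, 44.0 and 51.4 CPM, and at 6M 15.1, 17.3 and 12.9 CPM against 54.2, 37.1 and 56.4 CPM. NOD.H-2b 2M replicate 1 and NOD.H-2b 6M replicate 2 were the lowest of their groups and still above every BALB/c mouse of their age. Irf1 was a DEG at each age, with a log2 fold change of 1.15 ± 0.19 (FDR 0.00406), 1.30 ± 0.09 (FDR 6.18e-06) and 1.74 ± 0.17 (FDR 5.67e-05) at 2M, 4M and 6M. Without NOD.H-2b 2M replicate 2 the 2M value was 0.98, just under 2-fold, and without NOD.H-2b 2M replicate 1 it was 1.31 (FDR 1.12e-06).

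Socs1, which blocks the JAK kinases and so closes the loop, was low in control glands, at 8 to 40 counts per mouse. It measured 0.172, 0.305 and 0.141 CPM in BALB/c at 2M and 0.919, 1.81 and 1.08 CPM in NOD.H-2b LGs. At 4M it measured 0.369, 0.183 and 0.596 CPM against 3.74, 1.93 and 2.12 CPM, and at 6M 0.129, 0.383 and 0.304 CPM against 4.06, 2.45 and 3.73 CPM. The strains were separate at every age, and BALB/c 4M replicate 3 was the highest control. Socs1 was a DEG with a fold change of 6.31 at 2M (log2 2.66 ± 0.40, FDR 0.000286), 6.64 at 4M (log2 2.73 ± 0.42, FDR 0.000826) and 13.8 at 6M (log2 3.79 ± 0.37, FDR 2.13e-05). Without BALB/c 4M replicate 3 its log2 value at 4M was 3.21.

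**Figure D2:**
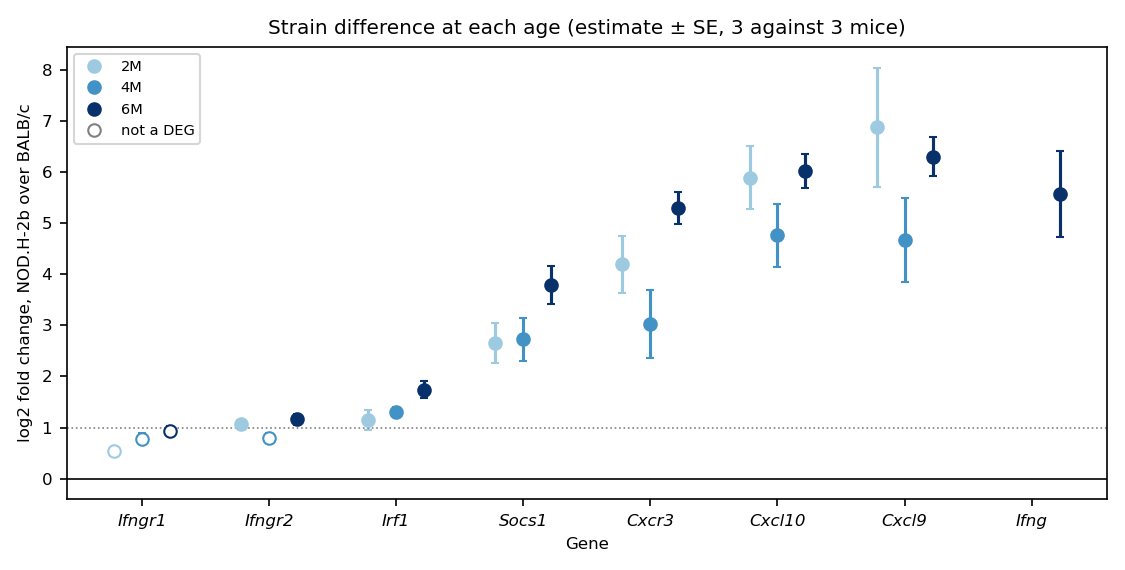
Log2 fold change of NOD.H-2b over BALB/c (y axis) for the 8 members that could be tested (x axis), at 2M, 4M and 6M in light to dark blue. Points are edgeR estimates from 3 against 3 mice, bars are ± 1 SE, open circles are not DEGs and the dotted line marks 2-fold. Values run from 0.53 for Ifngr1 at 2M to 6.89 for Cxcl9 at 2M.

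Cxcl9, the chemokine tied most closely to IFN-γ, and Cxcl10 differed by the largest folds of the members tested at 2M and 4M. In the BALB/c mice Cxcl9 measured 0.0764, 0.0538 and 0.0353 CPM at 2M, 0.719, 0.0203 and 1.24 CPM at 4M and 0.290, 0.149 and 0.257 CPM at 6M. In the NOD.H-2b mice it measured 1.82, 11.6 and 6.02 CPM at 2M, 18.1, 12.4 and 22.4 CPM at 4M and 22.4, 11.3 and 23.0 CPM at 6M. The control mice of 4M spread from 1 to 83 counts, and the NOD.H-2b mice of 2M spread by a factor of 6.39 in CPM, wider than in the NOD.H-2b mice of 4M (1.80) and 6M (2.03). No BALB/c mouse reached the lowest NOD.H-2b mouse of its age.

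The fold change of Cxcl9 was 118 at 2M (log2 6.89 ± 1.17, FDR 0.00949), 25.6 at 4M (log2 4.68 ± 0.83, FDR 0.0106) and 79.0 at 6M (log2 6.30 ± 0.38, FDR 7.64e-06). At the younger ages the call was lost in some fits of 5 mice with the fold about as large. The FDR was 0.0545 at 2M without BALB/c 2M replicate 3 and 0.0537 at 4M without BALB/c 4M replicate 1, with log2 fold changes of 6.64 and 4.69. The 2M value was 6.14 without NOD.H-2b 2M replicate 2 and 7.32 (FDR 1.87e-06) without NOD.H-2b 2M replicate 1. The 4M value was 5.52 without BALB/c 4M replicate 3.

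Cxcl10, the chemokine that type I interferon and TNF can also induce, followed the same order of groups. It measured 0.153, 0.0179 and 0.0529 CPM in BALB/c at 2M and 2.56, 6.61 and 3.85 CPM in NOD.H-2b LGs. At 4M it measured 0.479, 0.0813 and 0.239 CPM against 6.75, 4.22 and 11.2 CPM, and at 6M 0.140, 0.170 and 0.0468 CPM against 9.30, 5.63 and 9.24 CPM. The groups were apart at every age. The fold change was 59.6 at 2M (log2 5.90 ± 0.62, FDR 0.000275), 27.3 at 4M (log2 4.77 ± 0.62, FDR 0.00154) and 65.1 at 6M (log2 6.03 ± 0.34, FDR 7.7e-07). Without BALB/c 2M replicate 1 the log2 value at 2M was 6.89, and without BALB/c 4M replicate 1 that at 4M was 5.42.

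Cxcl11, the third ligand, was the scarcest. It had 0, 0 and 0 counts in BALB/c and 1, 10 and 2 in NOD.H-2b at 2M, 2, 2 and 3 against 7, 7 and 20 at 4M, and 8, 0 and 2 against 27, 5 and 14 at 6M. In CPM the strains were separate, but at 6M only just, with 0.0873 for the lowest NOD.H-2b mouse and 0.0859 for the highest control. With BALB/c set at the floor of 3, the pooled ratio at 2M was 3.75 (13 counts against 0, no interval). It was 4.58 at 4M (95% exact interval 2.00 to 12.2) and 4.41 at 6M (2.19 to 9.80). With no filter on low counts, a setting that moved FDRs widely, its FDR was 0.0203, 0.0336 and 0.0147 at 2M, 4M and 6M. At 2M 10 of the 13 NOD.H-2b counts came from 1 mouse.

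Cxcr3, the receptor of the 3 chemokines, was a DEG at each age. It measured 0.134, 0.0359 and 0.0882 CPM in BALB/c at 2M and 0.705, 2.30 and 1.63 CPM in NOD.H-2b LGs. At 4M it measured 0.0737, 0.548 and 0.880 CPM against 5.54, 3.58 and 3.32 CPM, and at 6M 0.0966, 0.192 and 0.0701 CPM against 5.59, 3.81 and 4.26 CPM. BALB/c 4M replicate 3, at 59 counts, again stood highest of the controls, and the strains did not overlap. The fold change was 18.3 at 2M (log2 4.20 ± 0.56, FDR 0.00024), 8.14 at 4M (log2 3.02 ± 0.66, FDR 0.0129) and 39.5 at 6M (log2 5.30 ± 0.32, FDR 9.14e-07). Without BALB/c 4M replicate 3 the 4M log2 value was 3.76, and without NOD.H-2b 2M replicate 1 the 2M value was 4.53. The 4M call was lost with no filter on low counts, at an FDR of 0.0552 and a like log2 value of 3.01.

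The mean strain difference over the ages came from a fit of all 18 mice, called at an FDR under 0.05 alone. All 9 members were higher in NOD.H-2b LGs, against 32.5% of the 19117 genes tested. The average log2 difference was 0.72 ± 0.06 for Ifngr1, 0.98 ± 0.05 for Ifngr2, 1.37 ± 0.10 for Irf1, 3.03 ± 0.26 for Socs1, 4.15 ± 0.37 for Cxcr3, 5.54 ± 0.37 for Cxcl10 and 5.93 ± 0.52 for Cxcl9. Ifng and Cxcl11 also passed, with FDRs of 2.96e-05 and 0.000965, but had no count in BALB/c at 2M, and no value is given for them. All 9 calls held when any 1 mouse was left out. Ifng and Cxcl11 had at most 1 and 8 counts in any BALB/c mouse and entered this fit through their NOD.H-2b counts. The 9 calls are therefore given as a description.

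The second question was how the axis moved with age within a strain. In BALB/c LGs no member was a DEG from 2M to 4M among the 4 tested (2.07% of 16639 genes rose), from 4M to 6M among 5 (0.0180% of 16622) or from 2M to 6M among 4 (1.57% of 16579). At an unadjusted p under 0.05 there were 3, 1 and 3 members, and DESeq2 called 0 in each. From 2M to 4M Irf1 (log2 0.74 ± 0.09, FDR 0.000241), Ifngr2 (0.39 ± 0.08, FDR 0.00915) and Ifngr1 (0.29 ± 0.09, FDR 0.0478) passed the FDR but stayed under 2-fold. The chemokines and Cxcr3 were mostly outside these tests. With no filter on low counts Cxcl9 (3.57 ± 0.62, FDR 6.2e-06) and Cxcr3 (2.54 ± 0.55, FDR 0.000123) were called in BALB/c from 2M to 4M, while Cxcr3 was called lower from 4M to 6M (-2.11 ± 0.54, FDR 0.00681). The 4M level behind these calls came from a pair of the 3 mice in each case, at 39, 1 and 83 counts of Cxcl9 and 4, 27 and 59 counts of Cxcr3.

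In NOD.H-2b LGs no member of 7 was a DEG from 2M to 4M by edgeR, against 5.97% of 17763 genes, with 4 members at an unadjusted p under 0.05. Ifngr1 (log2 0.57 ± 0.12, FDR 0.017) and Irf1 (0.93 ± 0.18, FDR 0.0208) passed the FDR there under 2-fold, while Socs1 (1.03 ± 0.34, FDR 0.0765) and Cxcr3 (1.42 ± 0.43, FDR 0.0666) missed it. DESeq2 called both Socs1 and Cxcr3, and without NOD.H-2b 2M replicate 2 edgeR called those and Irf1, while without NOD.H-2b 4M replicate 2 it called Irf1 (1.01, FDR 0.0371). From 4M to 6M none of the 9 members was called, against 0.00555% of 18026 genes, and none had an unadjusted p under 0.05 or was called by DESeq2.

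From 2M to 6M 3 of 8 members rose in NOD.H-2b LGs, against 10.9% of 18008 genes, and DESeq2 also called 3. Ifng went from 2, 7 and 0 counts to 28, 10 and 28 (log2 2.80 ± 0.77, FDR 0.0184), Socs1 rose 2.64-fold (log2 1.40 ± 0.29, FDR 0.00656) and Cxcr3 rose 2.89-fold (log2 1.53 ± 0.40, FDR 0.0244). Ifngr1 (0.69 ± 0.11, FDR 0.0021), Ifngr2 (0.34 ± 0.10, FDR 0.0255) and Irf1 (0.90 ± 0.24, FDR 0.0305) passed the FDR under 2-fold. Cxcl9 (1.51 ± 0.74, FDR 0.18) and Cxcl10 (0.87 ± 0.40, FDR 0.14) did not pass. The Socs1 call held without any 1 mouse. Ifng lost its call without NOD.H-2b 2M replicate 1, 2M replicate 3 or 6M replicate 3 (FDR 0.0584, 0.0518 and 0.0693), and Cxcr3 without 2M replicate 3, 6M replicate 1 or 6M replicate 3 (FDR 0.0852, 0.0744 and 0.0617) and also with no filter on low counts (FDR 0.0909). Without NOD.H-2b 2M replicate 2, the 2M mouse with the most Ifng, Cxcl9 and Cxcr3, 6 members were called, Irf1 and Cxcl10 among them, and the log2 value of Ifng was 4.26. The T cell markers of the NOD.H-2b LGs also moved with age, from 8.15 to 32.7 CPM at 2M to 77.2 to 107 CPM at 6M, and their part in these values was not tested.

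Whether the strain difference itself changed with age was tested in the 18-mouse fit at an FDR under 0.05. No member of 9 was called between 2M and 4M (0.696% of 19117 genes rose more in NOD.H-2b) or between 2M and 6M (7.04%). At an unadjusted p under 0.05 there were 0 and 2 members, and DESeq2 called 0 and 1. From 2M to 6M the estimated log2 change of the strain difference, not called by edgeR in this fit, was 0.41 ± 0.15 for Ifngr1 (FDR 0.0734) and 0.61 ± 0.25 for Irf1 (FDR 0.112). It was 1.13 ± 0.67 for Socs1 (FDR 0.262) and 1.11 ± 1.13 for Cxcr3 (FDR 0.538). DESeq2 called Irf1 at an FDR of 0.0426. Without NOD.H-2b 6M replicate 2 both Ifngr1 (0.49, FDR 0.032) and Irf1 (0.77, FDR 0.0227) were called, and without NOD.H-2b 2M replicate 2 Ifngr1 was (0.50, FDR 0.036). For Cxcl9 the estimate was -0.57 ± 1.76 and for Cxcl10 0.14 ± 1.32. With SEs of this size a change in the strain difference of either chemokine was not detectable in 3 mice a group.

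Levels were compared between genes only per length, as CPM per kilobase of exon. In BALB/c LGs at 2M the order was Ifngr1 (4.73), Irf1 (3.06) and Ifngr2 (2.12), with no overlap between neighbours, and every mouse had 0.105 or less of each other member. In NOD.H-2b LGs at 6M Irf1 (12.4 ± 2.66, SD) and Ifngr1 (10.8 ± 1.35) overlapped at the top, followed by Cxcl9 (6.26 ± 2.18) and Ifngr2 (5.54 ± 0.65), which overlapped, Cxcl10 (3.58 ± 0.93) and Cxcr3 (2.63 ± 0.54), which overlapped, and then Socs1 (1.17 ± 0.29), Ifng (0.265 ± 0.123) and Cxcl11 (0.0602 ± 0.0352), each apart from its neighbours. Ifng and Cxcl11 held the last places in all 6 groups.

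Marker RNA of the cell types that make and receive these signals differed between the strains too. At each age 10 of 10 T cell markers were upregulated DEGs in NOD.H-2b LGs. Cd6, Cd3d and Cd5, surface proteins of T cells, led them with mean levels of 7.33, 4.07 and 6.39 CPM at 6M against 0.0412, 0.0441 and 0.0712 CPM in BALB/c. NK cell markers summed to between 5.66 and 16.6 CPM in NOD.H-2b and between 0.406 and 3.13 CPM in BALB/c, with 6 of 6 tested upregulated at each age. Among them were Prf1, the pore protein of cytotoxic granules, and the NK receptors Klrd1 and Klre1. Macrophage markers summed to between 249 and 487 CPM against 73.1 and 179 CPM, with 8, 7 and 8 of 10 upregulated at 2M, 4M and 6M, led by Lyz2, Adgre1 and C1qb. Dendritic cell markers gave 6, 6 and 7 of 8, with Ccr7, Batf3 and Itgax in the lead. Endothelial markers gave 1, 1 and 2 of 8, and no lacrimal and epithelial marker was upregulated, while Car6, a secreted carbonic anhydrase of the gland, was downregulated at each age. B cell markers, led by the antigen receptor genes Cd79a and Cd79b, summed to between 0.968 and 27.3 CPM at 2M and between 211 and 419 CPM at 6M in NOD.H-2b LGs, against 2.30 CPM or less in BALB/c. The part of any of these cell types in the levels of the axis was not tested.

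The members were then set against the markers of the same mouse, as differences of log2 values, with an exact two-sided permutation of the strain labels within each age (8000 arrangements, p adjusted over the 4 ratios computed). Cxcl9 was higher in NOD.H-2b relative to macrophage markers by 3.70 (exact permutation p = 0.00025, adjusted 5e-04, the smallest p these arrangements give), with differences of 3.41, 3.63 and 4.06 at 2M, 4M and 6M. Computed from summed markers with no pseudocount, a choice made after the values were seen, the difference was 4.68 (exact permutation p = 0.00025), and at each age all 3 NOD.H-2b mice stood above all 3 BALB/c mice. At a single age the smallest p that 3 against 3 mice allow is 0.1, and Cxcl9 reached it at each. The ratio shows that Cxcl9 and macrophage markers differed by unequal amounts, not which cells made Cxcl9. That inequality was already present in the average strain differences, at log2 5.93 for Cxcl9 and a median of 2.03 for the macrophage markers. The members and marker lists were also chosen with earlier results of these data known. The p values of the ratios to markers are therefore given as a description.

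Cxcr3 was lower relative to T cell markers in NOD.H-2b LGs by 0.93 (p = 0.00075, adjusted 0.001, exact), and by 0.99 with summed markers and no pseudocount (p = 0.023). The mice of the strains overlapped at 2M and at 4M in the latter form and were apart at 6M, where the difference was -0.61. Over the 3 ages together Cxcr3 thus differed by less than the T cell markers did, but the size is uncertain. In BALB/c it averaged 0.0859 CPM at 2M and 0.119 CPM at 6M, near the pseudocount of 0.1 CPM. With summed markers the exact permutation p at the single ages was 0.4, 0.4 and 0.1. With summed markers, the ratio was narrow among the NOD.H-2b mice at each age, with an SD of 0.16, 0.06 and 0.15 in log2 at 2M, 4M and 6M, while in BALB/c, at 2 to 59 counts of Cxcr3, it was 1.18, 1.73 and 0.29.

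For Ifng the same ratio was -3.15 (p = 0.00025, adjusted 5e-04, exact), but with 2 Ifng counts among 9 control libraries the BALB/c side is set by the pseudocount of 0.1 CPM so no reading is drawn from it. Counts were pooled instead. Ifng made up 0.286% of the Ifng and T cell marker counts of the 9 NOD.H-2b mice (111 against 38736 counts, exact 95% interval 0.235 to 0.344%) and 0.216% in the 9 BALB/c mice (2 against 925, 0.0261 to 0.777%). The control interval holds the whole NOD.H-2b interval, so a difference in Ifng per T cell marker was not detectable at this depth. These intervals pool the mice of a strain and cover counting error only, not the spread between mice. By age the share in NOD.H-2b LGs was 0.230% (0.105 to 0.436%) at 2M, 0.218% (0.153 to 0.302%) at 4M and 0.358% (0.277 to 0.455%) at 6M.

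Cxcl9 against its neighbour Cxcl10 gave a strain difference of 0.56 in log2 (p = 0.0888, exact), which did not pass. In the NOD.H-2b mice Cxcl9 exceeded Cxcl10 in CPM per kilobase in 8 of 9 mice, the exception being 2M replicate 1, and in BALB/c in 5 of 9.

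**Figure D3:**
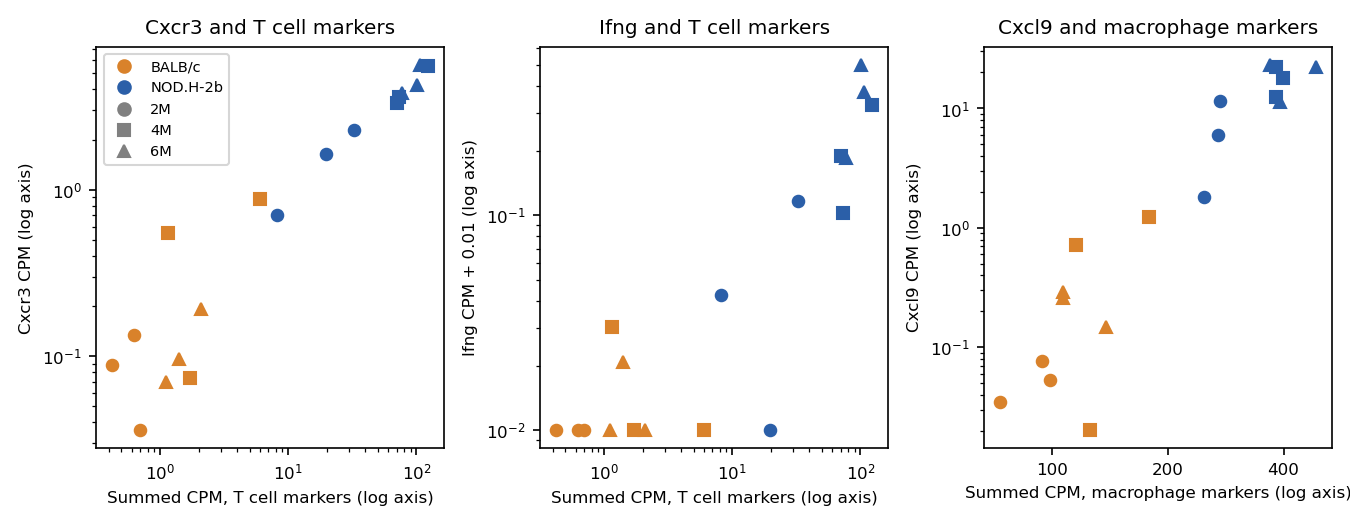
Cxcr3 (left, CPM) and Ifng (middle, CPM plus 0.01) against summed T cell markers, and Cxcl9 (right, CPM) against summed macrophage markers, in each of the 18 mice, on log axes. Orange is BALB/c and blue NOD.H-2b, with circles, squares and triangles for 2M, 4M and 6M. NOD.H-2b mice lie at 8.15 CPM or more of T cell markers and BALB/c mice at 5.98 CPM or less.

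The genes whose pattern over the 18 mice was most like that of a member were found by comparing log2 CPM, each gene centred on its own mean, and taking the smallest root mean square difference, among 19117 genes. For Cxcr3, which itself varied by 2.26, they were Orai2 (0.44), Nlrc3 (0.54), Kynu (0.56), Rac2 (0.60) and Ccl22 (0.60). For Cxcl9, which varied by 3.20, they included the T cell receptor constant gene Trac (0.70), Cd4 (0.74), Gm4759 (0.75) and Ubash3a (0.82), and Cxcl10 came at rank 10 (0.90). For Ifng, which varied by 1.42, they were the T cell receptor joining segments Traj21 (0.30) and Traj4 (0.41) and the unnamed gene models Gm37802, Gm37082 and Gm30948 (0.40, 0.41 and 0.41), all genes of low count. These are descriptions over mice that share strain, depth and cell makeup.

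The rest of the pathway was read from lists written with earlier results of these data known. Of 19 genes of IFN-γ signalling and its regulators, all tested, 6, 9 and 11 were upregulated at 2M, 4M and 6M and none was downregulated, with median log2 fold changes of 0.75, 0.92 and 1.42. The kinase Jak1 was no DEG at any age (0.14 ± 0.07 at 6M), and Jak2 was one at 4M and 6M (1.10 ± 0.15 and 1.44 ± 0.14). The largest differences belonged to Nlrc5 and Ciita, the transactivators of MHC class I and class II genes, and to Batf2. Nlrc5 measured 31.7 ± 11.4, 80.3 ± 19.5 and 89.7 ± 19.6 CPM (SD, n = 3) in NOD.H-2b at 2M, 4M and 6M, against 1.64 ± 0.64, 4.39 ± 3.12 and 2.12 ± 1.03 CPM in BALB/c. Ciita grew from a log2 fold change of 2.19 ± 0.39 at 2M to 4.40 ± 0.29 at 6M. The phosphatase genes Ptpn2 and Ptpn11 and the SUMO ligase gene Pias1 were no DEGs at any age, at -0.06 ± 0.10, -0.19 ± 0.08 and -0.33 ± 0.07 at 6M, of which the Pias1 value passed the FDR.

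Of 22 target genes of IFN-γ, 19 of 19 tested were upregulated at 2M, 19 of 20 at 4M and 20 of 20 at 6M, with median log2 fold changes of 3.00, 3.04 and 3.95. The exception at 4M was the complement inhibitor Serping1 (0.95 ± 0.12). Ido1 and Tgtp2 were never tested, with at most 2 and 12 counts in any mouse, and Acod1 was not tested at 2M. Igtp, a GTPase that acts on vacuoles of pathogens, measured 9.94 ± 3.42, 28.3 ± 10.1 and 29.2 ± 9.37 CPM in NOD.H-2b LGs against 0.879 ± 0.193, 2.00 ± 0.79 and 1.14 ± 0.25 CPM in BALB/c. Its relative Tgtp1 differed by a log2 fold change of 2.52 ± 0.43, 4.28 ± 0.52 and 4.79 ± 0.31. Nos2, the inducible nitric oxide synthase, had 15 to 52 counts in the NOD.H-2b mice and at most 4 in BALB/c. The immunoproteasome gene Psmb8 was 3.06 ± 0.20, 3.19 ± 0.20 and 3.90 ± 0.22, and Cd274, which encodes PD-L1, was 3.18 ± 0.37, 3.48 ± 0.22 and 3.99 ± 0.19. Several of these genes respond to type I interferon as well.

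**Figure D4:**
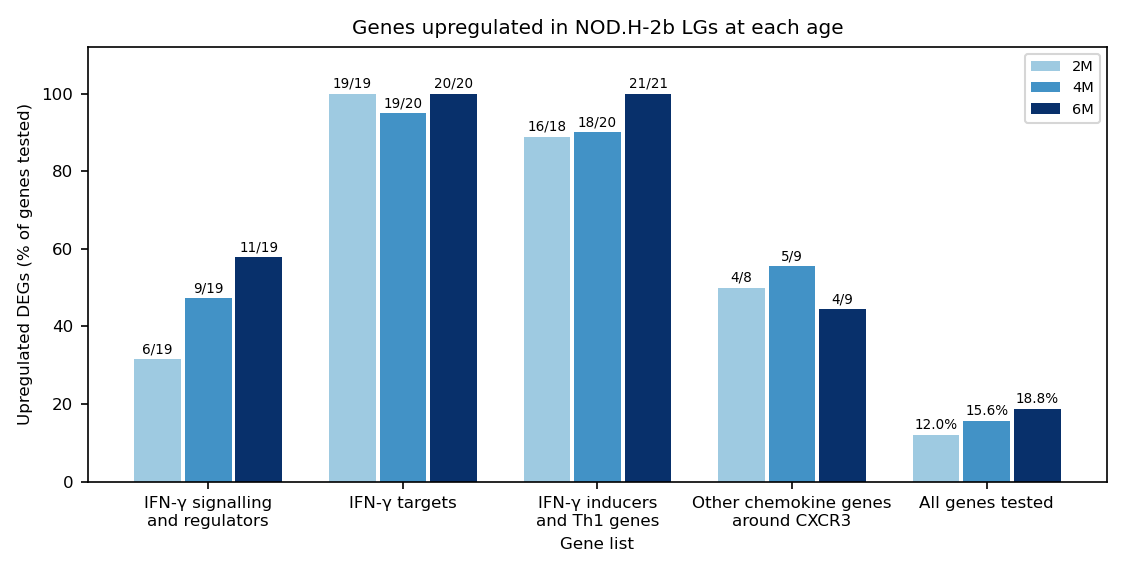
Share of the genes tested in each list (y axis, percent) that were DEGs upregulated in NOD.H-2b LGs at 2M, 4M and 6M, with the counts above the bars. The last bars give the share over all genes tested, 12.0%, 15.6% and 18.8%, and IFN-γ targets reach 19 of 19, 19 of 20 and 20 of 20.

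Upstream of Ifng, 23 genes that induce it or mark Th1 cells gave 16 of 18, 18 of 20 and 21 of 21 upregulated. Of those called at all 3 ages Stat4, which carries the IL-12 signal, had the largest mean difference (log2 4.96 ± 0.71, 5.23 ± 0.74 and 6.87 ± 0.56), followed by Tbx21, the Th1 master regulator T-bet (4.72 ± 0.71, 3.95 ± 0.53 and 6.22 ± 0.54). Il12b, a subunit of IL-12, was 4.07 ± 0.82, 3.31 ± 0.82 and 5.95 ± 0.59. Il2 had at most 2 counts in any mouse. Il21 had no count in any BALB/c mouse. At 6M its 265 counts in NOD.H-2b, set against a BALB/c floor of 3 over the group, gave a ratio of 84.7.

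Other helper programmes and interferons were set beside this. All 20 type I and III interferon genes on the list had at most 1 count in any mouse, too few to compare. Ifnar1 and Ifnar2, chains of the type I receptor, were DEGs at 6M (1.04 ± 0.08 and 1.30 ± 0.15) and Ifnar2 also at 4M (1.01 ± 0.13). Ifnlr1, the type III receptor chain of epithelia, was downregulated at 6M (-1.20 ± 0.11). Il17a and Il22 had no count in any mouse, and Il4, Il5, Il13 and Il17f had at most 7, 2, 3 and 1. Foxp3 and Gata3, regulators of regulatory T cells and Th2 cells, were upregulated at each age, at 5.75 ± 1.03 and 3.47 ± 0.80 CPM at 6M in NOD.H-2b against 0.0179 ± 0.0310 and 0.272 ± 0.088 CPM in BALB/c.

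Among other chemokine genes around CXCR3, 4 of 8, 5 of 9 and 4 of 9 were upregulated. Cxcl13, which attracts B cells, measured 3.27 ± 1.57, 13.1 ± 2.35 and 19.4 ± 7.62 CPM in NOD.H-2b against 0.192 ± 0.088, 0.402 ± 0.222 and 0.595 ± 0.269 CPM in BALB/c. Cxcr4 (log2 5.07 ± 0.40 at 6M) and Cxcl16 (2.95 ± 0.16) were also DEGs at each age. Ackr3, a scavenging receptor of CXCL11, was no DEG at any age (-0.17 ± 0.18 at 6M), and Dpp4, the peptidase that trims and inactivates CXCR3 ligands, was lower in NOD.H-2b LGs by under 2-fold (-0.45 ± 0.05, -0.73 ± 0.07 and -0.75 ± 0.08, FDR 3.08e-05, 3.5e-05 and 3.52e-05).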

How the data were processed

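Total RNA of 1 LG per mouse, from 18 male mice, was depleted of rRNA and sequenced by the authors with paired ends. Per the paper's methods and the submitters' processing notes, the authors used cutadapt for trimming, STAR for alignment (GRCm38) and HTSeq for counting reads in each Ensembl gene. The deposited raw counts of 54232 genes were the only values analysed. A second deposited table, of DESeq2-normalised values on a log2 scale, was not used. The strand setting, the release of the annotation and how reads with several matches were handled are not given in the sources used here. Coordinates and exon lengths came from GENCODE M21, where 54165 of the genes were found.

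The analysis used R 4.3.3 and edgeR 4.0.16 (TMM, filterByExpr, robust quasi-likelihood test, Benjamini-Hochberg over all genes tested) on the mice of each comparison, or on all 18 for the average strain difference and its change with age. Each SE is the log2 fold change divided by the root of its F statistic. CPM used the library totals times the TMM factors of all 18 mice. Within-mouse ratios used log2(CPM + 0.1) and exact permutation. Alternatives were DESeq2 size factors, no filter, at least 10 counts in every mouse, the DESeq2 1.42.0 Wald test, a replicate block, 1 fit of all 18 mice, a pseudocount of 1 CPM and leaving out each mouse. Ratios from summed markers without a pseudocount were added after the data were seen. Simulated data were used to check the steps.

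The members and lists were chosen with earlier results of these data known. All members were named, and from each list up to 3 DEGs of 1 direction at all ages whose mean change was largest, and other list genes named were chosen after their values were seen. Pairs of replicates differed by a chi-square of 16.4 to 83.4 per gene, more than counting error. Over genes as a whole the 3 mice thus set the precision and not the depth. Exceptions are Ifng and Cxcl11, and the BALB/c side of Cxcl9, Cxcl10 and Cxcr3, at 2 to 4, 1 to 8 and 2 to 7 counts per mouse at 2M. Some list genes are not reported here.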

Additional observations from a re-analysis of the deposited data

How the results depend on the processing

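The strain difference kept its direction for each member under every alternative run, and counts of members called at 2M, 4M and 6M ran over 5 to 6, 5 to 6 and 7 to 9 when 1 mouse was left out, and the average strain difference called 9 in all cases. With at least 10 counts in every mouse 2, 1 and 3 members were called at 2M, 4M and 6M and 3 in the average, a filter that takes out the chemokines, Cxcr3 and Ifng, and Socs1 except at 6M, for their low BALB/c counts. The replicate numbers did not pair the mice (correlations of same-numbered deviations from -0.06 to 0.10). With the replicate block, 6, 4 and 7 members were called at the 3 ages, and 1 in place of 3 between 2M and 6M in NOD.H-2b LGs. The 4M call lost was Cxcr3 (FDR 0.0688), the 2M to 6M calls lost were Ifng (FDR 0.086) and Cxcr3 (FDR 0.079), and no other count of calls moved with the block.

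For age, counts without 1 mouse ran over 0 to 1 in BALB/c from 2M to 4M, 0 to 3 (2M to 4M) and 1 to 6 (2M to 6M) in NOD.H-2b and 0 to 2 for strain by age from 2M to 6M. With no filter 2 members, Cxcl9 and Cxcr3, were called in BALB/c from 2M to 4M and 1, Cxcr3, from 4M to 6M. DESeq2 called 2 between 2M and 4M in NOD.H-2b. For strain by age from 2M to 6M, DESeq2 and the filter of 10 counts called 1 each. The strain by age estimates of Cxcl9 and Cxcl10, neither of them called, ran from -1.01 to 0.16 and from -0.91 to 0.58 without 1 mouse. Cxcl10 turned to -0.91 without BALB/c 2M replicate 1, -0.13 without NOD.H-2b 2M replicate 1 and -0.19 without BALB/c 6M replicate 3, and Cxcl9 to 0.16 without NOD.H-2b 2M replicate 2.

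Cxcl9 relative to Cxcl10 passed with a pseudocount of 1 CPM (0.72, p = 0.00175, exact permutation). BALB/c mice had at most 1.24 CPM of Cxcl9 and 0.479 CPM of Cxcl10. That pseudocount thus largely sets the BALB/c side, and no reading is drawn from the pass. With the pseudocount of 0.1 CPM the difference ran from 0.36 to 0.78 without 1 mouse (exact permutation p 0.0118 to 0.205). Without a pseudocount it was 0.47 (p = 0.415, exact permutation). The causes were not tested. Depth limits Ifng and Cxcl11 most, whose folds are given as ratios to a floor or with counting intervals. Low BALB/c counts also limit the folds of Cxcl9, Cxcl10 and Cxcr3.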
